A study of Mus musculus with 31 samples.

Results

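The surface markers described here are 10 genes used to stage the conversion of fibroblasts into induced pluripotent cells: Thy1, Cd44, Icam1, Epcam, Fut4, Pecam1, Anpep, Vcam1, Cd34 and Alpl. They were chosen by name, and each had 1 row of its own on the arrays, so all 10 were measured among 19938 genes with a symbol of their own. Mouse embryonic fibroblasts grown in DMEM with foetal bovine serum received retroviruses on day 0. The 4F arm received Oct4, Sox2, Klf4 and c-Myc, the 3F arm received Oct4, Sox2 and Klf4, and the GFP arm received a control virus. The 31 arrays comprised 2 of uninfected cells on day 0, 16 of 4F cells (2 each on days 1, 2, 3, 4, 5, 6 and 8, 1 each on days 10 and 12), 4 of 3F cells (1 each on days 3, 5, 8 and 12) and 9 of GFP cells (2 each on days 1, 3, 5 and 8, 1 on day 12). In 1 label field the 3F samples are said to hold 4 factors although it lists Oct4, Sox2 and Klf4 alone, and they were taken as 3F. The sources used here name no strain, no cell sorting and no share of infected cells. Each array read bulk RNA, in which fewer cells of a type and less RNA per cell cannot be told apart.

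As background, fibroblasts carry adhesion and matrix receptors such as Thy1 and Cd44 on their surface, and pluripotent stem cells carry Epcam, Pecam1, alkaline phosphatase and the carbohydrate epitope SSEA-1. In reprogramming cultures, loss of Thy1 protein and gain of alkaline phosphatase and SSEA-1 are widely used to follow early steps, and Cd44 with Icam1 to follow later ones. Antibodies read proteins and carbohydrates, whereas the arrays read only messenger RNA, and Fut4 stands in the set as an enzyme that can make SSEA-1 and not as a surface protein itself.

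The values are log2 signals, so that a difference of 1 is a doubling, and levels of single genes are not ranked against each other because each has its own probe set. The median of all signals, 6.33, serves only as a rough mark of low signal, since probe sets differ. Levels summed over a list weigh its brightest probe sets most. A gene was called where limma's adjusted p (Benjamini-Hochberg over all 19938 genes) was under 0.05. The p-values measure the spread between these arrays, which the labels call biological replicates without naming separate cultures. The labelling reaction used 120 ng of RNA for replicate 1 and 300 ng for the 19 other arrays, and the number of arrays limits the precision. All arrays of 3F and of days 10 and 12 carry no replicate number. A change after day 8 therefore cannot be told apart from a difference of the unnumbered arrays. As a check of the arms, Pou5f1, which encodes Oct4, lay between 6.05 and 9.93 in 4F, between 6.3 and 10.2 in 3F and between 5.22 and 5.6 in GFP. Sox2 lay between 5.74 and 9.48 in 4F, between 5.86 and 9.2 in 3F and between 5.31 and 5.57 in GFP. Uninfected cells gave 5.65 and 5.23 for Pou5f1, below every 4F array. They gave 5.66 and 5.98 for Sox2, which did not set them apart from 4F on day 1 (5.74 and 6.13). Klf4 was not higher in 4F (6.65 to 7.61) than in GFP (7.67 to 8.15), and it was 7.55 to 8.49 in 3F. Myc, which encodes c-Myc, was 6.37 to 8.5 in 4F, 7.95 to 9.37 in 3F, the arm labelled as lacking it, and 6.58 to 9.72 in GFP. In uninfected cells Myc was 9.7 and 9.58, above every 4F array. Myc therefore did not check the label that sets 3F apart from 4F. The sources do not say whether these probe sets read the delivered copies. The labelled cell type was borne out by 14 fibroblast genes, whose median signal in uninfected cells was 10.12, against a median of all signals of 6.33. Their log2 summed level there was 15.09 and 15.13. Each of the 14 exceeded 6.33 on at least 1 of the 31 arrays, of any arm.

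Against the GFP control on day 8, Thy1, Anpep and Vcam1 were lower in 4F and Epcam and Alpl were higher, while Cd44, Icam1, Fut4, Pecam1 and Cd34 did not pass the test. These 5 called genes of 10 compare with 27.6% of all genes called in the same comparison. Without 4F day 8 replicate 2 the count was still 5, but Epcam lost its call and Icam1 gained one as lower in 4F. The median difference of the 10 genes was -0.06 and that of all genes -0.03. On day 1 limma called 0 of the 10 genes against GFP, with 0 at an unadjusted p under 0.05 and 1.81% of all genes called. On day 3 it called 3 (11.9% of all genes), namely Thy1, Vcam1 and Alpl, and on day 5 it called 4 (21.4%), namely these and Anpep. On day 3 the count fell to 1 without 4F replicate 1, without GFP replicate 1 and without GFP replicate 2.

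Against the uninfected start, the calls on day 8 also included Cd44 and Cd34. On that day Thy1 and Cd44 were lower in 4F than on day 0 and Epcam, Cd34 and Alpl were higher, 5 genes of 10 against 15.9% of all genes. This count fell to 3 without uninfected replicate 2. The GFP cells themselves moved away from day 0: by day 8 Icam1, Anpep, Vcam1 and Cd34 had risen and Cd44 had fallen in them, 5 genes of 10 against 20.1% of all genes. That count was 3 without uninfected replicate 2 and also 3 without GFP day 8 replicate 1. On day 1 limma called 0 of the 10 genes in 4F against day 0 (0 at an unadjusted p under 0.05, 0.838% of all genes called) and 0 in GFP (1 at an unadjusted p under 0.05, 0.0903% of all genes called). The 4F and GFP comparisons with day 0 share the same uninfected arrays.

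**Figure D1:**
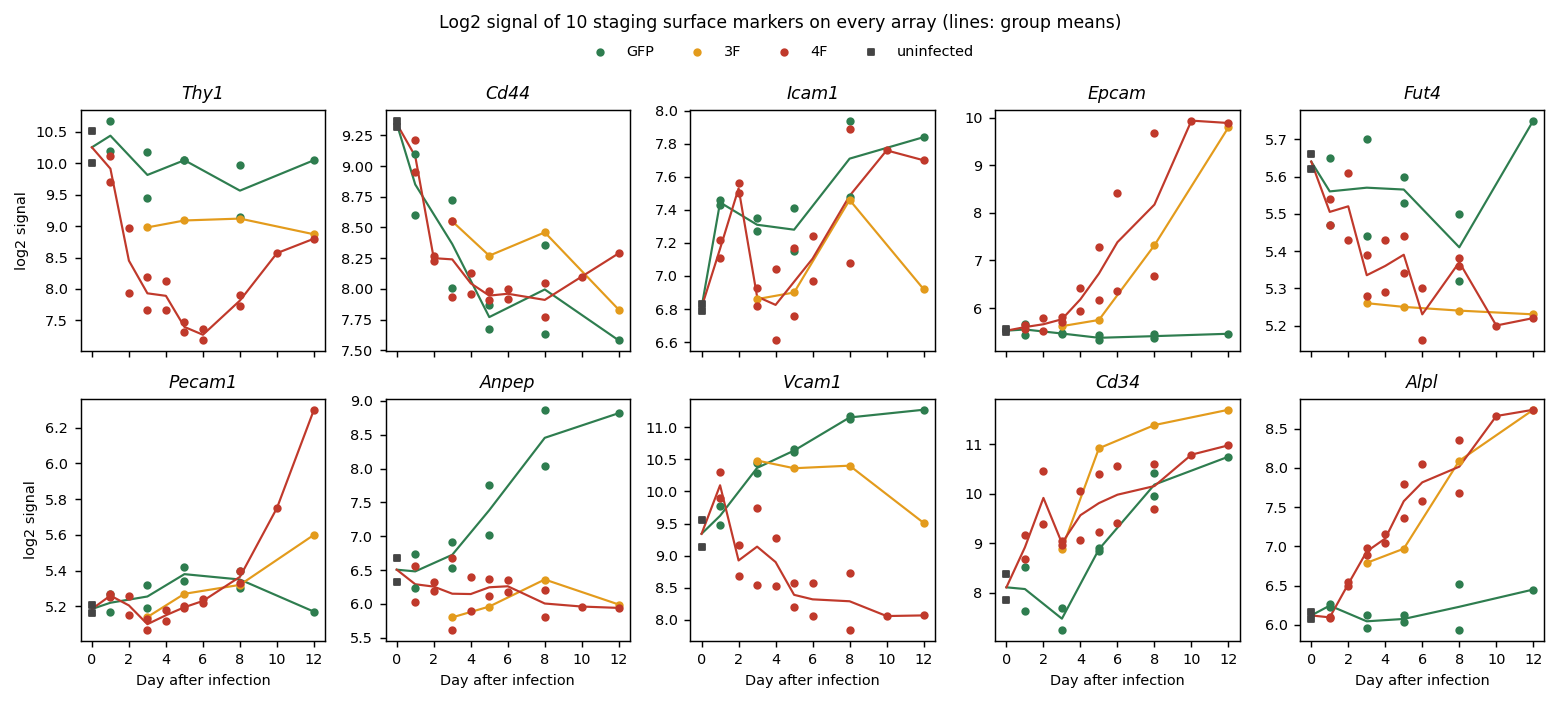
Log2 signal (vertical axis, its range set for each gene) of the 10 surface markers against the day after infection; each point is 1 array, lines join group means, and squares are uninfected cells. Thy1 fell in 4F to 7.18 and 7.36 on day 6, Alpl and Epcam stayed at or below 6.52 on every GFP array, and Vcam1 and Anpep rose in GFP.

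Thy1, a glycoprotein tethered to the membrane by a lipid anchor and abundant on fibroblasts, had the largest fall of the 10 genes in 4F relative to day 0. Its signal was 10.0 and 10.51 in uninfected cells. In 4F it was 9.71 and 10.12 on day 1, 7.93 and 8.97 on day 2, 7.67 and 8.19 on day 3, 7.66 and 8.12 on day 4, 7.32 and 7.47 on day 5, 7.18 and 7.36 on day 6, 7.73 and 7.9 on day 8, 8.57 on day 10 and 8.8 on day 12. From day 2 on, every 4F array lay below every GFP and uninfected array, and the single, unnumbered arrays of days 10 and 12 lay above those of days 3 to 8. In GFP it was 10.2 and 10.68 on day 1, 9.45 and 10.18 on day 3, 10.05 and 10.05 on day 5, 9.15 and 9.98 on day 8, and 10.05 on day 12.

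On day 6 the Thy1 signal in 4F was 7.9-fold below day 0 (log2 difference -2.98 ± 0.35 (SE, n = 2 against 2), adjusted p = 3.9e-05). Thy1 had already passed the test on day 2 (-1.8 ± 0.35, adjusted p = 0.0038), a call lost without uninfected replicate 2 (-1.55, adjusted p = 0.051) or 4F day 2 replicate 1 (-1.29, adjusted p = 0.068). Against GFP of the same day it was lower by 3.69-fold on day 3 (adjusted p = 0.0025), 6.28-fold on day 5 (adjusted p = 8.4e-05) and 3.36-fold on day 8 (-1.75 ± 0.35, adjusted p = 0.0014). The GFP change from day 0 to day 8 was -0.69 (adjusted p = 0.21, or 0.016 with the replicate block). The difference from GFP moved by -1.22 between day 1 and day 8 (adjusted p = 0.17, or 0.0079 with the replicate block).

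Cd44, the main receptor for the matrix polymer hyaluronan, fell in both arms. Its signal was 9.32 and 9.37 in uninfected cells. The 4F arrays gave 8.95 and 9.21 on day 1, 8.27 and 8.23 on day 2, 7.93 and 8.55 on day 3, 7.96 and 8.13 on day 4, 7.98 and 7.91 on day 5, 7.92 and 8.0 on day 6, 7.77 and 8.05 on day 8, 8.1 on day 10 and 8.29 on day 12. The GFP arrays gave 8.6 and 9.1 on day 1, 8.01 and 8.72 on day 3, 7.87 and 7.67 on day 5, 7.63 and 8.36 on day 8, and 7.58 on day 12. On day 8 all 4F and GFP arrays lay below both uninfected arrays, and the 4F and GFP values overlapped. The change from day 0 to day 8 was -1.43 ± 0.26 in 4F (adjusted p = 0.0013) and -1.35 ± 0.26 in GFP (adjusted p = 0.0015). The difference between the arms on day 8 was -0.08, with a 95% interval from -0.63 to 0.47 (adjusted p = 0.88).

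Anpep, a membrane aminopeptidase also called CD13, separated the arms by rising in GFP. It was 6.68 and 6.33 in uninfected cells and between 5.62 and 6.68 on all 16 4F arrays, with 6.21 and 5.8 on day 8 and 5.94 on day 12. In GFP it was 6.73 and 6.23 on day 1, 6.92 and 6.53 on day 3, 7.75 and 7.02 on day 5, 8.87 and 8.04 on day 8, and 8.82 on day 12. Every GFP array from day 5 on lay above every 4F and uninfected array. GFP on day 8 was 3.87-fold above day 0 (1.95 ± 0.36, adjusted p = 0.0011), whereas the 4F change was -0.5 (95% interval -1.26 to 0.26, adjusted p = 0.46). Against GFP, 4F was 5.48-fold lower on day 8 (-2.45 ± 0.36, adjusted p = 9.8e-05). The day 5 difference of -1.14 (adjusted p = 0.032) lost its call without 4F day 5 replicate 1 (-1.27, adjusted p = 0.09), without 4F day 5 replicate 2 (-1.02, adjusted p = 0.15) and without GFP day 5 replicate 1 (-0.78, adjusted p = 0.27).

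Vcam1, an adhesion molecule bound by leukocyte integrins and also made by stromal cells, rose in GFP and was lower in 4F. Uninfected cells gave 9.13 and 9.55. In 4F it was 9.89 and 10.3 on day 1, 8.68 and 9.17 on day 2, 8.54 and 9.74 on day 3, 8.52 and 9.28 on day 4, 8.2 and 8.58 on day 5, 8.06 and 8.58 on day 6, 7.85 and 8.73 on day 8, 8.06 on day 10 and 8.07 on day 12. In GFP it was 9.77 and 9.47 on day 1, 10.29 and 10.44 on day 3, 10.61 and 10.66 on day 5, 11.13 and 11.17 on day 8, and 11.27 on day 12. From day 3 on the arms did not overlap.

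On day 8 Vcam1 was 7.25-fold lower in 4F than in GFP (-2.86 ± 0.37, adjusted p = 3.3e-05), and on day 5 4.73-fold lower (adjusted p = 4.5e-04). GFP had risen 3.5-fold since day 0 (1.81 ± 0.37, adjusted p = 0.0023). The 4F difference from day 0 was -1.05 on day 8 (adjusted p = 0.068, or 0.0082 with the replicate block, and -1.49 with adjusted p = 0.029 without 4F day 8 replicate 2). With the replicate block the 4F differences from day 0 on day 5 (-0.95, adjusted p = 0.017) and on day 6 (-1.02, adjusted p = 0.0099) also passed, where the unblocked adjusted p was 0.12 and 0.078. The day 3 difference from GFP of -1.22 (adjusted p = 0.042) lost its call without 4F day 3 replicate 1 (-0.63, adjusted p = 0.42), GFP day 3 replicate 1 (-1.3, adjusted p = 0.14) or GFP day 3 replicate 2 (-1.15, adjusted p = 0.13).

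Icam1, a ligand of leukocyte integrins, rose in GFP, and its difference between the arms did not pass the test. Uninfected cells gave 6.83 and 6.79. The GFP signals were 7.46 and 7.43 on day 1, 7.27 and 7.35 on day 3, 7.41 and 7.15 on day 5, 7.94 and 7.48 on day 8, and 7.84 on day 12. The 4F signals were 7.11 and 7.22 on day 1, 7.5 and 7.56 on day 2, 6.82 and 6.93 on day 3, 6.61 and 7.04 on day 4, 6.76 and 7.17 on day 5, 6.97 and 7.24 on day 6, 7.08 and 7.89 on day 8, 7.76 on day 10 and 7.7 on day 12. Both 4F values of day 2 lay above all 4F values of days 3 to 6, and the arms overlapped on day 8. GFP on day 8 was 1.87-fold above day 0 (0.9 ± 0.22, adjusted p = 0.0085), a call lost without uninfected replicate 2 (0.88, adjusted p = 0.052) or GFP day 8 replicate 1 (0.67, adjusted p = 0.12).

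The Icam1 difference of 4F from day 0 was 0.72 on day 2 (adjusted p = 0.057, or 0.034 with the replicate block) and 0.68 on day 8 (adjusted p = 0.051, or 0.032 with the replicate block). Without 4F day 8 replicate 1 the latter was 1.09 (adjusted p = 0.003). Between the arms on day 8 the difference was -0.22, with a 95% interval from -0.7 to 0.25 (adjusted p = 0.54), and without 4F day 8 replicate 2 it was -0.63 (adjusted p = 0.041).

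Cd34, a sialomucin of blood progenitors, endothelium and some fibroblasts, rose in both 4F and GFP. It was 8.37 and 7.84 in uninfected cells. In 4F it was 9.16 and 8.67 on day 1, 9.38 and 10.45 on day 2, 8.96 and 9.04 on day 3, 9.07 and 10.06 on day 4, 9.23 and 10.39 on day 5, 9.4 and 10.56 on day 6, 9.7 and 10.61 on day 8, 10.79 on day 10 and 10.98 on day 12. In GFP it was 8.51 and 7.63 on day 1, 7.69 and 7.25 on day 3, 8.91 and 8.84 on day 5, 10.41 and 9.96 on day 8, and 10.75 on day 12. On days 1, 3 and 5 both 4F arrays lay above both GFP arrays, and by day 8 the arms overlapped.

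On day 2 Cd34 was 3.52-fold above day 0 in 4F (1.82 ± 0.5, adjusted p = 0.034), and on day 8 4.15-fold in 4F (2.05 ± 0.5, adjusted p = 0.01) and 4.23-fold in GFP (2.08 ± 0.5, adjusted p = 0.0074). The difference between 4F and GFP was 1.53 on day 3 (adjusted p = 0.063, or 0.043 with the replicate block) and -0.03 on day 8 (95% interval -1.1 to 1.04, adjusted p = 0.98). Without uninfected replicate 2 the day 8 change lost its call in both 4F (1.79, adjusted p = 0.097) and GFP (1.82, adjusted p = 0.071). It was also lost without 4F day 8 replicate 2 (1.6, adjusted p = 0.1) and without GFP day 8 replicate 1 (1.86, adjusted p = 0.068). The day 2 call was lost without uninfected replicate 1 (2.08, adjusted p = 0.078), uninfected replicate 2 (1.55, adjusted p = 0.21) or 4F day 2 replicate 2 (1.28, adjusted p = 0.28).

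Epcam and Alpl were the genes gained in 4F relative to GFP, whereas Anpep rose in the GFP control, and their promoters are shown for that contrast. RefSeq promoter windows on build GRCm38.p6 were found for 7 of the 10 genes, each 300 bases long with 250 bases before the transcription start. Positions count from the first transcribed base as 0. Capitals mark matches, on either strand, to the GC box GGGCGG, the E-box CACGTG or the TATA box TATAAA. Other motifs searched were a KLF type motif CACACCC, the AP-1 motif TGANTCA, an NF-kB type motif GGNNNTTCC and an octamer type motif TGCAAAT, and none of them occurs in these 4 windows.
Epcam, chr17:87635729-87636028, plus strand: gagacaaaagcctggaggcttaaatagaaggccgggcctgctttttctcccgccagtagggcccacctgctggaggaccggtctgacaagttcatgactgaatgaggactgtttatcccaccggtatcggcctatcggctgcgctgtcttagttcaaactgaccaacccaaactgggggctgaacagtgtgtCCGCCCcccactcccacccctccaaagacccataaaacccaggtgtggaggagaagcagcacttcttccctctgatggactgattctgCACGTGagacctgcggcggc
Alpl start 1, chr4:137796335-137796634, minus strand: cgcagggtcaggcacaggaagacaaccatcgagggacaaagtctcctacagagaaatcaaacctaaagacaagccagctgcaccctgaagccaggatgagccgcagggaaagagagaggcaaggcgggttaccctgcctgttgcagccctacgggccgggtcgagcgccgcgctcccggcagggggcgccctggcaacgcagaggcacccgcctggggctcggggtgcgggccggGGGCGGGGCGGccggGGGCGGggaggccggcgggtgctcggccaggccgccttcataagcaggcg
Alpl start 2, chr4:137766426-137766725, minus strand: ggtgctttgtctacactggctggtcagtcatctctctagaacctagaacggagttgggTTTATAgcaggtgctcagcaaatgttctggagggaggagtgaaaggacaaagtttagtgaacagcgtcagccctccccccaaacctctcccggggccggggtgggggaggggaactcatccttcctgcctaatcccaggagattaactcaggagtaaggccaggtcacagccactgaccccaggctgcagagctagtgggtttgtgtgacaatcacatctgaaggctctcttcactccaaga
Anpep, chr7:79848161-79848460, minus strand: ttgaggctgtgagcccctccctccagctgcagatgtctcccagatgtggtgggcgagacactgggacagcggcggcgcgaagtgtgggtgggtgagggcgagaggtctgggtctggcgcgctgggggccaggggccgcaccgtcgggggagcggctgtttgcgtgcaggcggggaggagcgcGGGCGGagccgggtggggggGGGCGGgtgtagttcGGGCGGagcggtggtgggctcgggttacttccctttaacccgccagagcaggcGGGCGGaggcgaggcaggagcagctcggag
The Epcam window holds a GC box on the reverse strand from -58 to -53 and an E-box from 30 to 35. The first Alpl window holds 3 GC boxes, starting at -15, -10 and 0, of which the first 2 share a base, and the second holds a TATA box on the reverse strand from -192 to -187. The Anpep window holds 4 GC boxes, starting at -68, -48, -33 and 20. A GC box lay in 35.7% of 32851 promoter windows of the same length, an E-box in 7.2% and a TATA box in 13.6%. The sources do not say which Alpl start the array row reads, and the matches are a description of letters.

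Alpl, the tissue-nonspecific alkaline phosphatase whose activity is stained to find pluripotent colonies, rose in 4F from day 3 on and did not pass the test in GFP. It was 6.08 and 6.16 in uninfected cells. The 4F arrays gave 6.09 and 6.1 on day 1, 6.54 and 6.5 on day 2, 6.98 and 6.89 on day 3, 7.16 and 7.04 on day 4, 7.36 and 7.79 on day 5, 7.58 and 8.05 on day 6, 7.68 and 8.35 on day 8, 8.66 on day 10 and 8.74 on day 12. The GFP arrays gave 6.23 and 6.26 on day 1, 6.13 and 5.96 on day 3, 6.12 and 6.03 on day 5, 6.52 and 5.94 on day 8, and 6.45 on day 12. From day 3 on every 4F array lay above every GFP array.

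On day 8 Alpl was 3.45-fold higher in 4F than in GFP (1.78 ± 0.21, adjusted p = 1.8e-05) and 3.72-fold higher than on day 0 (1.89 ± 0.21, adjusted p = 2.9e-05). The GFP change was 0.11 (95% interval -0.35 to 0.57, adjusted p = 0.81). The difference from GFP on day 3 (0.89 ± 0.21, adjusted p = 0.013) lost its call without any 1 of the 4 arrays behind it: 0.84 without 4F replicate 1, 0.93 without 4F replicate 2, 0.97 without GFP replicate 1 and 0.8 without GFP replicate 2. The adjusted p was then 0.09, 0.051, 0.05 and 0.071.

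Epcam, an adhesion molecule of epithelia that pluripotent cells also carry, rose later and differed between replicates. It was 5.55 and 5.5 in uninfected cells and between 5.32 and 5.66 on all 9 GFP arrays. In 4F it was 5.56 and 5.64 on day 1, 5.8 and 5.52 on day 2, 5.71 and 5.82 on day 3, 5.94 and 6.43 on day 4, 6.17 and 7.28 on day 5, 6.35 and 8.42 on day 6, 6.67 and 9.68 on day 8, 9.94 on day 10 and 9.89 on day 12. From day 3 on every 4F array lay above every GFP array, and from day 5 on the replicate 2 array lay at least 1 log2 unit above its replicate 1 partner.

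On day 8 Epcam was 6.78-fold higher in 4F than in GFP (2.76 ± 0.72, 95% interval 1.23 to 4.29, adjusted p = 0.0085). Within the replicate 1 set the difference was 1.3 and within the replicate 2 set 4.23. Without 4F day 8 replicate 2 it was 1.25 (adjusted p = 0.13). Against day 0 the value was 2.64 (adjusted p = 0.019), and it lost its call without uninfected replicate 1 (2.67, adjusted p = 0.083), uninfected replicate 2 (2.62, adjusted p = 0.094) or 4F day 8 replicate 2 (1.14, adjusted p = 0.24). On day 6 it was 1.86 (adjusted p = 0.1), and 2.89 (adjusted p = 0.026) without 4F day 6 replicate 1. Beside these values, whose link with the following ones was not tested, the log2 summed level of 14 measured pluripotency genes was 10.46 on the replicate 1 array of 4F day 8 and 11.44 on the replicate 2 array, against 9.5 and 9.35 in GFP.

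Pecam1, an adhesion molecule of endothelium and of mouse pluripotent cells, stayed near its starting level until the last arrays, those of days 10 and 12, which carry no replicate number. It was 5.21 and 5.16 in uninfected cells, 5.33 and 5.4 in 4F on day 8, 5.75 on day 10 and 6.3 on day 12, with 5.17 in GFP on day 12. The day 12 difference of 1.12 between 4F and GFP rests on 1 array each and was not tested. On day 8 the difference was 0.02, with a 95% interval from -0.13 to 0.16 (adjusted p = 0.91). Pecam1 was below 6.33, the median of all signals, on every array.

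Fut4, a fucosyltransferase, did not rise in any arm. It was 5.62 and 5.66 in uninfected cells, between 5.16 and 5.61 in 4F and between 5.32 and 5.75 in GFP, and all 31 values lay below the median of all signals. The 4F difference from GFP on day 8 was -0.04 (95% interval -0.26 to 0.18, adjusted p = 0.83). Against day 0 it was -0.41 ± 0.1 on day 6 (adjusted p = 0.012), a call lost without uninfected replicate 1 (-0.43, adjusted p = 0.052), uninfected replicate 2 (-0.39, adjusted p = 0.076) or 4F day 6 replicate 1 (-0.34, adjusted p = 0.12). Fut9, another enzyme able to make the SSEA-1 epitope, stayed between 4.74 and 5.09 on all arrays.

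**Figure D2:**
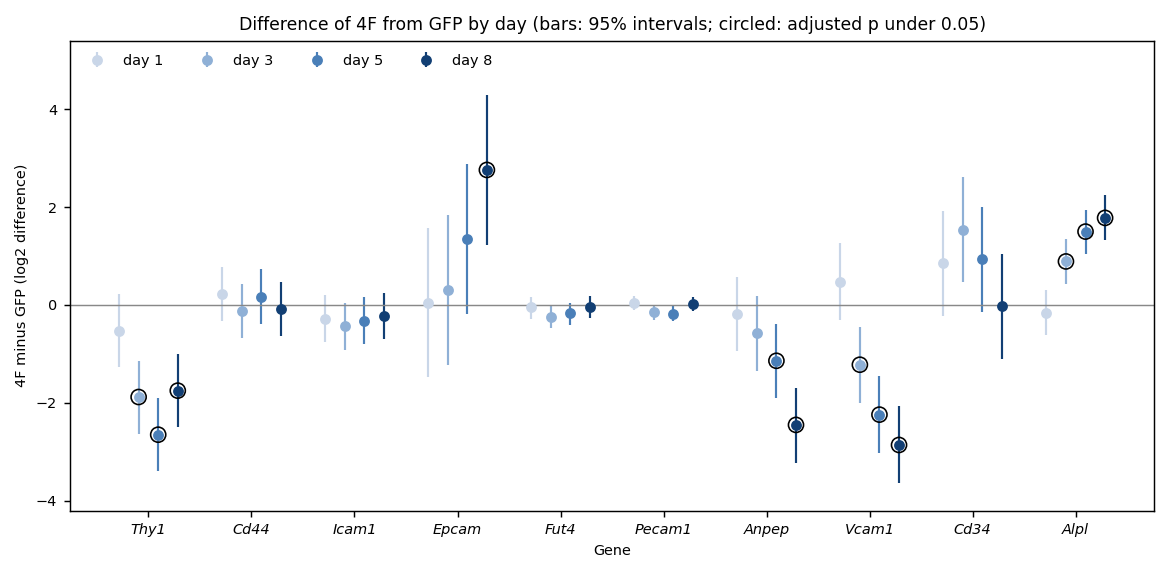
Log2 difference between 4F and GFP (vertical axis) for the 10 genes on days 1, 3, 5 and 8, each with its 95% interval from the fit and circled if called. Thy1, Anpep and Vcam1 reached -1.75, -2.45 and -2.86 on day 8, Epcam and Alpl reached 2.76 and 1.78, and the intervals of Cd44, Icam1, Fut4, Pecam1 and Cd34 on that day include 0.

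The order of loss and gain in 4F can be set out for Cd44, Thy1, Alpl and Epcam, called against day 0 on day 8, by the day on which the line through the group means passed the middle between the day 0 and day 8 levels. This was day 1.5 for Cd44, 1.6 for Thy1, 3.8 for Alpl and 5.2 for Epcam. In the replicate 1 and replicate 2 sets taken alone it was 1.6 and 1.5 for Cd44, 1.5 and 1.8 for Thy1, 2.8 and 4.3 for Alpl and 4.7 and 5.3 for Epcam. Cd44 and Thy1 cannot be ordered, since their values in the 2 sets overlap. In both sets Alpl and then Epcam came after them. Cd44 changed alike in GFP by day 8 (-1.35, against -1.43 in 4F), so its fall is not particular to 4F. The day 8 level was not a final one. On the single day 10 array Epcam was 9.94 and Alpl 8.66, and Thy1 in 4F was lowest on day 6. Epcam on day 8 reached 6.67 in replicate 1 and 9.68 in replicate 2, so its middle level differs between the sets. Cd34, also called on day 8, has no single such day: its 4F mean passed the middle level of 9.13 before day 2 (9.92), lay below it again on day 3 (9.0) and passed it once more by day 4 (9.56).

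The calls against day 0 were counted day by day. In 4F limma called 3 of the 10 genes on day 2 (9.35% of all genes), 3 on day 3 (8.53%), 3 on day 4 (10.1%), 4 on day 5 (13.6%) and 5 on day 6 (16.1%). Thy1 and Cd44 were lower on each of these days. Alpl was higher from day 3, by 0.82 (adjusted p = 0.027). Cd34 was higher on days 2, 5 and 6 but not called on days 3 (adjusted p = 0.36) and 4 (adjusted p = 0.087), and Fut4 was lower on day 6. The Cd44 call on day 2 (-1.09, adjusted p = 0.014) was lost without any 1 of its 4 arrays, with an adjusted p of 0.07 and 0.083 without uninfected replicates 1 and 2 and of 0.074 and 0.073 without 4F day 2 replicates 1 and 2. The Alpl call on day 3 was also lost without any 1 of its 4 arrays, with values of 0.77 and 0.86 and an adjusted p from 0.083 to 0.16. The Alpl call on day 4 (0.98, adjusted p = 0.0078) was lost without uninfected replicate 1 (0.93, adjusted p = 0.061) or 4F day 4 replicate 1 (0.92, adjusted p = 0.069). The Cd44 call on day 3 (-1.1, adjusted p = 0.015) was lost without either uninfected array (adjusted p = 0.078 in both) or 4F day 3 replicate 1 (-0.79, adjusted p = 0.19). The Cd34 call on day 5 (1.7, adjusted p = 0.035) was lost without uninfected replicate 1 (1.97, adjusted p = 0.071), uninfected replicate 2 (1.44, adjusted p = 0.21) or 4F day 5 replicate 2 (1.12, adjusted p = 0.29). That on day 6 (1.88, adjusted p = 0.018) was lost without uninfected replicate 2 (1.61, adjusted p = 0.13) or 4F day 6 replicate 2 (1.3, adjusted p = 0.19). The count of day 2 was 0 without uninfected replicate 2 and 1 without uninfected replicate 1 or either 4F day 2 array. The count of day 3 was 1 without either uninfected array or 4F day 3 replicate 1, and that of day 6 was 3 without uninfected replicate 2.

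**Figure D3:**
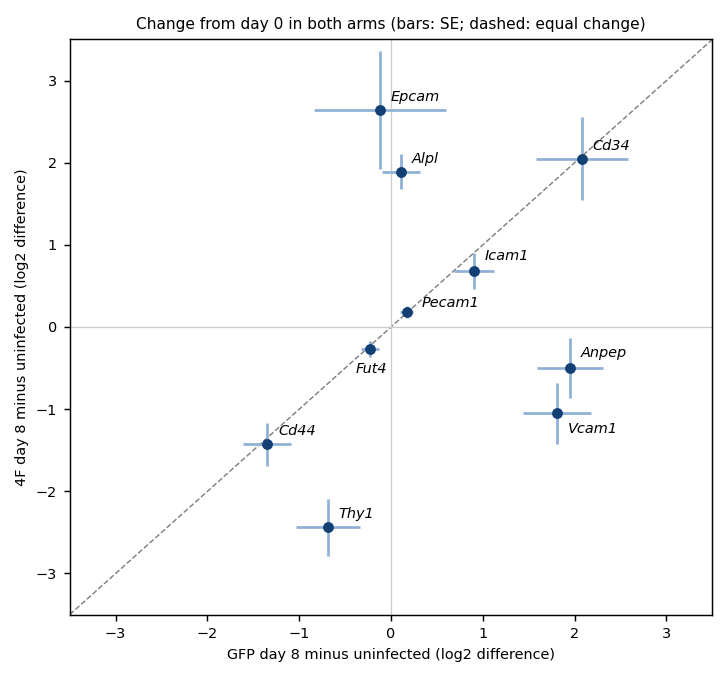
Log2 difference from uninfected cells on day 8 in 4F (vertical axis) against that in GFP (horizontal axis), with 1 point per gene, SE bars and a dashed line of equal change; both axes use the same uninfected arrays. Cd44 (-1.35 in GFP, -1.43 in 4F) and Cd34 (2.08 and 2.05) lie near the line, Epcam and Alpl above it, and Thy1, Anpep and Vcam1 below it.

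The 3F arm was compared with the others over days 3, 5, 8 and 12 in a model that adds effects of day and arm (4 arrays of 3F, 7 of 4F and 7 of GFP), in which the days of 3F stand in for replicates. The model holds each difference between arms constant over the days. A difference that changed with the day therefore adds to the SE, the interval and the p-value, which do not measure replicate spread alone. Against GFP, Alpl and Cd34 were higher in 3F and Thy1, Icam1, Fut4 and Anpep were lower, 6 genes of 10 against 18.3% of all genes. Alpl in 3F was 6.79 on day 3, 6.97 on day 5, 8.09 on day 8 and 8.74 on day 12, above every GFP array (1.37 ± 0.23, adjusted p = 7.2e-04). Anpep was 5.8, 5.96, 6.36 and 5.99 on these days, below every GFP array of the same days (-1.72 ± 0.35, adjusted p = 0.0033).

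Cd34 was 8.88 on day 3, 10.92 on day 5, 11.39 on day 8 and 11.7 on day 12 in 3F, and its difference from GFP was 1.44 ± 0.29 (adjusted p = 0.0033, or 1.2 with adjusted p = 0.24 with the replicate block). Thy1 was 8.98, 9.09, 9.12 and 8.87, below every GFP array (-0.87 ± 0.24, adjusted p = 0.019, but -0.69 with adjusted p = 0.09 without the 3F day 12 array). Icam1 (-0.49, adjusted p = 0.039) and Fut4 (-0.31, adjusted p = 0.0079) lost their calls when only arrays labelled from 300 ng were used (-0.42 with adjusted p = 0.12 and -0.28 with adjusted p = 0.078). With the replicate block Fut4 was -0.35 (adjusted p = 0.13). Icam1 also lost its call without any 1 of the 3F arrays, with values from -0.35 (day 12) to -0.56 (day 8). It lost it too without GFP day 3 replicate 1 (-0.49, adjusted p = 0.058), GFP day 3 replicate 2 (-0.47, adjusted p = 0.059), GFP day 5 replicate 1 (-0.47, adjusted p = 0.069), GFP day 8 replicate 1 (-0.46, adjusted p = 0.073) or GFP day 12 (-0.46, adjusted p = 0.088).

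Epcam in 3F was 5.62 on day 3, 5.75 on day 5, 7.32 on day 8 and 9.8 on day 12, so that it lay within the GFP range (5.32 to 5.66) on day 3 and above it from day 5 on. Its difference from GFP over the days was 1.47 ± 0.64 (adjusted p = 0.13). This single value does not describe the course, since on day 12 alone 3F minus GFP was 4.34. On day 12 the 3F and 4F values of Epcam (9.8 and 9.89) and Alpl (8.74 and 8.74) lay side by side, while Pecam1 was 5.6 in 3F and 6.3 in 4F. These day 12 values are 1 array each and were not tested.

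Against 4F, Thy1 and Vcam1 were higher in 3F, 2 genes of 10 against 9.63% of all genes. Vcam1 in 3F was 10.48 on day 3, 10.36 on day 5, 10.4 on day 8 and 9.51 on day 12, and the difference from 4F was 1.68 ± 0.31 (adjusted p = 0.0063). Thy1 was higher by 1.1 ± 0.24 (adjusted p = 0.012). This pooled Thy1 value did not hold on every day: on day 8 Thy1 was 9.12 in 3F and 7.73 and 7.9 in 4F. On day 12, with 1 array each and not tested, 3F minus 4F was 0.07 for Thy1 and 1.44 for Vcam1. Both calls depend on how the unnumbered arrays are treated, because no 3F array carries a replicate number. The unnumbered arrays were labelled from 300 ng, as were those of replicate 2. With the replicate block only the day 12 arrays still compare 3F with other arms, and Vcam1 was 0.97 (adjusted p = 0.75) and Thy1 0.43 (adjusted p = 0.9). With only arrays from 300 ng they were 1.41 (adjusted p = 0.092) and 0.92 (adjusted p = 0.086). Thy1 also lost its call without the 3F day 5 array (1.01, adjusted p = 0.072) or the 3F day 8 array (0.99, adjusted p = 0.066). The 3F to 4F difference in Alpl was -0.14 (95% interval -0.63 to 0.34, adjusted p = 0.82) and in Epcam -0.42 (95% interval -1.78 to 0.94, adjusted p = 0.8).

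Other genes of the same kinds were followed in 5 lists, described on day 8 for 4F against GFP beside the shares of all genes called higher (14.5%) and lower (13%) and their median difference of -0.03. Of 24 measured genes for other fibroblast surface proteins, 16 were lower and 3 higher, with a median of -1.5. The lower ones included Pdgfra (-3.47 ± 0.51, adjusted p = 1.0e-04) and Pdgfrb (-2.72 ± 0.3, adjusted p = 8.1e-06), receptors for platelet-derived growth factor, the cadherin gene Cdh11 (-3.24 ± 0.23, adjusted p = 1.8e-07) and the collagen receptor subunit Itga11 (-3.07 ± 0.27, adjusted p = 1.1e-06). Pdgfra had a mean of 9.18 on day 0, 8.22 in 4F and 11.69 in GFP on day 8, and Itga11 of 6.95, 5.95 and 9.02. In 4F against day 0, Pdgfra was not called (-0.96, adjusted p = 0.27). Pdgfrb (-2.13), Cdh11 (-2.53) and Itga11 (-1) were called lower than on day 0. The higher ones were Nt5e, Dpp4 and Cd109. Of the same 24 genes, 12 were higher and 0 lower in 3F than in 4F, with a median of 0.74 against -0.01 for all genes, of which 5.77% were called higher and 3.87% lower. That comparison called 1921 genes in all, but 133 with only arrays from 300 ng and 14 with the replicate block.

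Nt5e and Dpp4 had the largest positive differences of their list, in which Cd109 was also called higher (2.42, adjusted p = 7.8e-06). Cd109 had a mean of 10.08 on day 0, 10.32 in 4F and 7.9 in GFP on day 8. Its 4F difference from day 0 was 0.24 (adjusted p = 0.7), so it was lower in GFP and not gained in 4F. Nt5e encodes CD73, an ectoenzyme that makes adenosine, and its signal was 6.57 and 6.39 in uninfected cells, 8.79 and 9.18 in 4F on day 2 and 9.73 and 9.98 on day 8, against 6.62 and 5.84 in GFP on day 8 (difference 3.62 ± 0.32, adjusted p = 1.1e-06). Dpp4 encodes CD26, a cell surface protease, and it was 5.34 and 5.8 in uninfected cells, 9.14 and 8.91 in 4F on day 3 and 9.4 and 9.76 on day 8, against 6.44 and 6.17 in GFP on day 8 (3.28 ± 0.28, adjusted p = 7.5e-07). In 3F Dpp4 ran from 9.42 on day 3 to 11.24 on day 8. All 4F and 3F arrays from day 3 on lay above all GFP arrays for both genes.

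Of 22 measured genes for other surface proteins of pluripotent cells, 12 were higher in 4F and 3 lower, with a median of 0.7. The higher ones included the Nodal co-receptor Tdgf1 (3.68 ± 0.53, adjusted p = 8.2e-05), the amino acid transporter Slc7a3 (3.21 ± 0.71, adjusted p = 0.0028), the sialomucin Podxl (2.87 ± 0.3, adjusted p = 4.6e-06) and the protease inhibitor Spint2 (2.1 ± 0.31, adjusted p = 1.0e-04). Il6st, the receptor subunit through which LIF signals, was lower (-2.4 ± 0.28, adjusted p = 1.7e-05), with a mean of 9.95 on day 0, 9.9 in 4F and 12.3 in GFP on day 8. The other lower ones were Sdc1 (-1.07) and Ncam1 (-0.85). Tdgf1, like Epcam, differed between replicates of 4F day 8, at 8.32 and 10.36. Of the 12 genes higher than in GFP, Cd24a (0.03, adjusted p = 0.99) and Itga6 (-0.83, adjusted p = 0.11) were not called in 4F against day 0. Neither were Cldn6 (0.9, adjusted p = 0.095) and Slc7a3 (2.1, adjusted p = 0.058), and the rest were called higher. Slc7a3 had a mean of 6.89 on day 0, 8.99 in 4F and 5.77 in GFP on day 8.

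Of 18 measured genes for synthesis of carbohydrate epitopes, 6 were lower and 2 higher, with a median of -0.36. The lower ones included Ugcg, which makes glucosylceramide (-2.71 ± 0.26, adjusted p = 2.5e-06), the galactosyltransferase gene B4galt1 (-2.09 ± 0.15, adjusted p = 2.5e-07) and the sialyltransferase genes St3gal2 (-1.79) and St3gal1 (-1.46). B3gnt2 (1.21 ± 0.23, adjusted p = 8.2e-04) and St6gal1 (0.48) were higher. Of 10 genes for phosphatases and for anchoring of proteins such as Thy1 and Alpl to a membrane lipid, 2 were higher and 2 lower, with a median of -0.05. Piga, which acts at the opening step of the anchor's synthesis, was higher (2.21 ± 0.15, adjusted p = 1.4e-07), and Pigk, part of the complex that attaches the anchor, was lower (-1.5 ± 0.25, adjusted p = 2.8e-04). Piga had a mean of 7.61 on day 0, 8.6 in 4F and 6.39 in GFP on day 8.

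Of 19 measured genes for ligands and partners of the markers, 7 were lower and 4 higher, with a median of 0.03. The lists overlap: Itga4, Itgb1 and Itgav are also among the other fibroblast surface proteins, and Cldn7 among the pluripotent ones. Itgb1 and Itgav were therefore counted as lower in both lists. Has2, which makes the hyaluronan that Cd44 binds, was 10.33 and 10.05 in uninfected cells, 6.06 and 6.66 in 4F on day 8 and 9.36 and 10.83 in GFP on day 8 (-3.73 ± 0.76, adjusted p = 0.0016). Mmp14, a membrane protease that can cleave Cd44, was lower as well (-2.37 ± 0.25, adjusted p = 5.9e-06), with a mean of 10.93 on day 0, 9.87 in 4F and 12.24 in GFP on day 8. Ezr, which ties Cd44 to the actin cortex, was higher (1.87 ± 0.18, adjusted p = 2.3e-06), with a mean of 8.78 on day 0, 9.31 in 4F and 7.44 in GFP on day 8. The Ezr difference of 4F from day 0 was 0.53 (adjusted p = 0.058). Esrp1 and Esrp2, splicing regulators known to act on Cd44 transcripts, were higher by 0.92 (adjusted p = 0.016) and 0.48 (adjusted p = 0.0058).

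**Figure D4:**
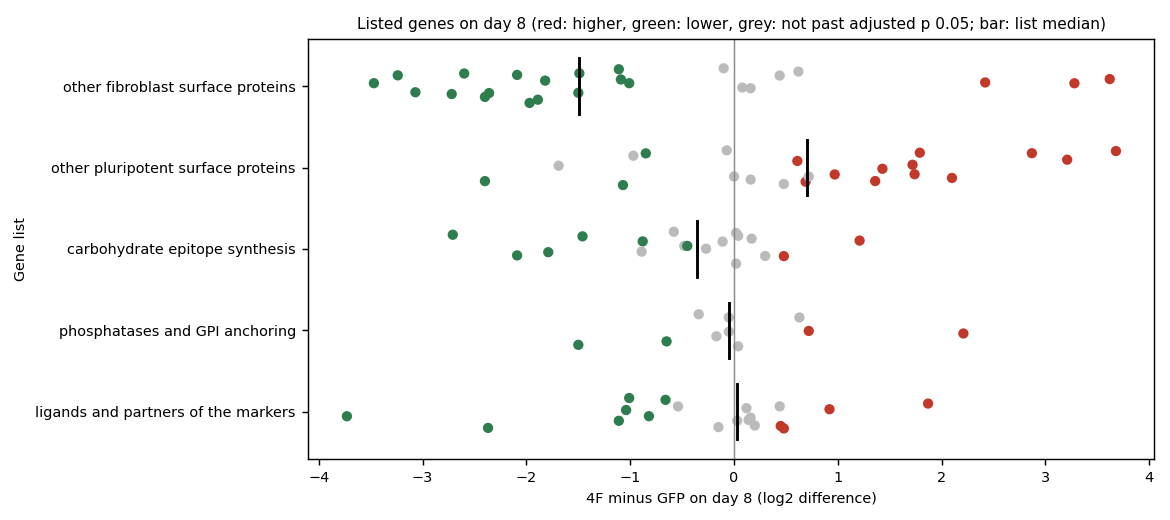
Log2 difference between 4F and GFP on day 8 (horizontal axis) for each measured gene of the 5 further lists (vertical axis), with 1 point per gene, red if called higher, green if called lower and grey if not called, and a bar at the list median. The list of other fibroblast surface proteins has its median at -1.5 with Nt5e and Dpp4 at 3.62 and 3.28, and that of other pluripotent surface proteins has its median at 0.7.

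Several of the 10 markers also mark other cells, so the marker lists of those cells were read on the same arrays. Of 14 endothelial genes 8 never exceeded the median of all signals, and their log2 summed level was 9.97 and 10.1 in uninfected cells, 10.02 to 10.36 in 4F, 10.12 to 10.4 in 3F and 9.89 to 10.22 in GFP. The defining endothelial genes Cdh5, Tie1, Emcn and Vwf lay below 6.33 on every array, and Kdr (5.1 to 6.5) exceeded it on 2 arrays. Of 14 measured leukocyte genes 9 never exceeded that median, with summed levels of 9.47 and 9.84 in uninfected cells, 9.44 to 10.74 in 4F, 9.78 to 10.16 in 3F and 9.44 to 10.05 in GFP, and Ptprc (4.84 to 5.38) and Spi1 (4.97 to 5.56) were below it on every array, while Csf1r (5.28 to 6.37) exceeded it on 1. For 11 keratinocyte genes the summed level was 9.33 and 9.39 in uninfected cells, 9.39 to 10.59 in 4F, 10.31 to 10.55 in 3F and 9.12 to 9.62 in GFP, so that all 3F arrays lay above all uninfected and GFP arrays. Krt5 lay between 4.98 and 5.93, and Trp63 (5.89 to 6.71) exceeded 6.33 on 3 arrays. Perp, a desmosome-associated gene of that list, was higher in 4F than in GFP on day 8 (1.71 ± 0.45, adjusted p = 0.0089) and higher in 3F than in GFP (2.72 ± 0.3, adjusted p = 2.5e-05). The Perp difference of 4F on day 8 from day 0 was 1.14 (adjusted p = 0.11). The part of these summed levels in the marker values was not tested. Of 5 measured bone genes 4, and of 9 germ cell genes 8, never exceeded the median of all signals. Of the fibroblast genes, 13 of 14 were lower in 4F than in GFP on day 8, with summed levels of 14.32 and 14.13 against 16.24 and 16.23. GFP had itself moved, with 9 of the 14 higher on day 8 than on day 0 and 1 lower, and against day 0 4F had 8 lower and 1 higher.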

How the data were processed

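Total RNA of 31 samples was labelled and hybridised to Affymetrix single-colour whole-transcript arrays, per the labels' protocols. The deposited table holds log2 signals, 1 row per probe set and 1 column per array, with array medians from 6.04 to 6.17. The sources used here do not say how the authors normalized them, and the values were used as deposited. Of 28853 rows, 21789 carry 1 gene symbol in the platform annotation, giving 19938 genes. For the 999 genes with more than 1 row, the row with the highest mean was used.

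Differences were fitted with limma 3.58.1 under R 4.3.3. A model of 19 group means on all 31 arrays had 12 residual degrees of freedom, and an additive model of day and arm on 18 arrays also had 12. A gene was called at a Benjamini-Hochberg adjusted p under 0.05. The script was tested on simulated data. Figures were drawn with matplotlib 3.10.9 from tables made with pandas 2.3.3. Per the labels, arrays of 1 replicate number share a labelling amount, so the number was taken to pair arrays. In 66 pairs of groups the replicate differences correlated across genes with r from 0.081 to 0.69 (65 over 0.1). The replicate block adds this number as a term. Alternatives were the replicate block, quantile normalization, the mean of a gene's rows, leaving out dim genes, leaving out each array and, chosen after seeing the data, only 300 ng arrays.

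The members and lists were chosen with earlier results of these data known. Named genes are the 10 members, the delivered factors Pou5f1, Sox2, Klf4 and Myc, up to 4 genes furthest up and down among the called genes of each list, the called endothelial and leukocyte genes, and the 2 genes most like each member. Has2, Nt5e, Dpp4 and Tdgf1 are among these, and their values by array were added after seeing the data, as were those of Fut9, Perp, Cdh5 and other defining markers. Promoter sequences are RefSeq's, build GRCm38.p6.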

Additional observations from a re-analysis of the deposited data

Results flagged for a closer look

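The difference between 4F and GFP changed between day 1 and day 8 for 3 of the 10 genes, by the test of that change itself, against 8.49% of all genes. For Vcam1 it moved by -3.33 ± 0.52 on the log2 scale (adjusted p = 0.001). For Anpep it moved by -2.26 ± 0.51 (adjusted p = 0.011), and this call was lost without 4F day 1 replicate 1 (-1.99, adjusted p = 0.052), GFP day 1 replicate 2 (-2.01, adjusted p = 0.053) or GFP day 8 replicate 1 (-1.85, adjusted p = 0.051). For Alpl it moved by 1.94 ± 0.3 (adjusted p = 0.001). For Epcam the change was 2.71 (adjusted p = 0.13), and without 4F day 8 replicate 1 it was 4.22 (adjusted p = 0.003).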

How the results depend on the processing

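Of 1588 values of the 10 genes under all alternatives, 62 changed sign, and 0 of these were called in either fit. Quantile normalization and the mean of a gene's rows changed no call of the 10 genes (160 values each). Without dim genes, which removed Fut4 and Pecam1, 6 further calls were gained. The replicate block added 8 calls and removed 4, all given beside their results, and changed no other call of the 10 genes. It moved the number of all genes called in 4F against GFP from 361 to 924 on day 1, from 2378 to 3749 on day 3 and from 1693 to 2820 for the change between days 1 and 8. Against day 0 it moved it in 4F from 167 to 369 on day 1, 1864 to 2879 on day 2, 1700 to 2733 on day 3 and 2007 to 3087 on day 4, and in GFP from 18 to 143 on day 1. For 3F against 4F it moved it from 1921 to 14 and the markers called from 2 to 0, and with only 300 ng arrays, chosen after seeing the data, these were 133 and 0.

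Leaving out 1 array at a time, 61 of 960 values of the 10 genes lost their call and 5 gained one. The markers called in 4F against GFP ranged from 0 to 0 on day 1, 1 to 2 on day 3, 3 to 4 on day 5 and 5 to 5 on day 8, and from 2 to 4 for the change. The count of day 8 hides a swap: without 4F day 8 replicate 2, Epcam lost its call and Icam1 gained one. Against day 0 the markers called ranged in 4F from 0 to 1 on day 2, 1 to 2 on day 3, 2 to 3 on day 4, 3 to 4 on day 5, 3 to 5 on day 6 and 3 to 6 on day 8, and in GFP from 3 to 5 on day 8. They ranged from 4 to 6 for 3F against GFP and from 1 to 2 for 3F against 4F. All genes called in 4F against GFP ranged from 23 to 308 on day 1, 1134 to 2384 on day 3, 2427 to 3508 on day 5 and 4460 to 5020 on day 8, and from 922 to 1578 for the change. In 4F against day 0 they ranged from 29 to 61, 999 to 1238, 814 to 1209, 1088 to 1290, 1507 to 1795, 2066 to 2190 and 1958 to 2708 on days 1, 2, 3, 4, 5, 6 and 8. In GFP against day 0 they ranged from 3 to 42 on day 1 and 2747 to 3821 on day 8. They ranged from 2442 to 3967 for 3F against GFP and from 440 to 2848 for 3F against 4F. The causes of these shifts were not tested. Groups hold 2 arrays or 1, which limits the precision, and Fut4 and Pecam1 had signals below the median of all signals on every array.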

Other observations

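For each marker, the genes whose 19 group means followed it most closely were taken among 5831 genes with group means ranging over at least 1 log2 unit. The groups share uninfected cells, days and arms, so the correlations are descriptions. Epcam ran with Cdh1, the epithelial cadherin gene (r = 0.992), and Clec2g (r = 0.984). Alpl ran with Fbxo15, a gene known from embryonic stem cells (r = 0.981), and Lgals7 (r = 0.973). Thy1 ran with the lysyl oxidase family gene Loxl3 (r = 0.974) and Glipr2 (r = 0.969). Anpep ran with Angptl1 (r = 0.973) and Pgm5 (r = 0.972), and Vcam1 with Sh3pxd2a (r = 0.970) and the peroxidasin gene Pxdn (r = 0.970). Cd34 ran with the scavenger receptor gene Scara5 (r = 0.940) and Plekhg1 (r = 0.905), Pecam1 with AU015836 (r = 0.965) and Plac1 (r = 0.961), and Cd44 with Megf10 (r = 0.929) and Npnt (r = 0.919). The highest Pecam1 means were 5.75 and 6.3 in 4F on days 10 and 12 and 5.6 in 3F on day 12, each from 1 unnumbered array. Its correlations rest largely on these arrays, and all its signals lay below the median of all signals. Lower correlations were found for Fut4, with Fkbp11 (r = 0.901) and Krtcap2 (r = 0.897), and for Icam1, with Rtn2 (r = 0.848) and Ldhb (r = 0.808). Among the markers themselves, over 31 arrays, Epcam and Alpl had the highest correlation of 45 pairs (r = 0.91) and Fut4 and Alpl the lowest (r = -0.69).

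Single genes of other cell types' lists were called in 4F against GFP on day 8 although the defining genes of those cells were low. Tek, an angiopoietin receptor gene, was 5.42 and 5.48 in uninfected cells, 7.72 and 7.99 in 4F on day 1 and 8.24 and 8.61 on day 8, and it lay between 5.53 and 7.47 on the GFP arrays. Laptm5, a lysosomal membrane protein gene of blood cells, was 6.08 and 5.8 in uninfected cells, 7.55 and 9.16 in 4F on day 8 and 9.22 on day 12, and between 5.68 and 6.08 on the GFP arrays. The list differences on day 8 were 1.5 for Tek and 2.58 for Laptm5, against -1.94 for Flt1, -1.51 for Cd14 and -1.87 for Lyz2.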
